A study of Arabidopsis thaliana with 22 samples.

Results

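Nuclear genes of photosynthesis were followed in bulk mRNA sequencing of Arabidopsis thaliana roots. The set held 50 of the 33323 genes in the deposited table, and was chosen by gene family. It comprised 5 genes for the small subunit of Rubisco (RBCS) and Rubisco activase (RCA), and 14 LHCB genes for light-harvesting proteins of photosystem II. It also held 6 LHCA genes for the antenna of photosystem I, 12 PSA genes for photosystem I subunits, 10 PSB genes for photosystem II subunits and 3 PET genes for plastocyanin and the Rieske protein. All 50 were among the 21683 genes that passed the filter on low counts. Libraries of a mutant labelled myb67, allele myb67-1 in the Col-0 accession, were compared with Col-0 wild type (WT), with both genotypes sown together. MYB67 encodes a transcription factor of the MYB family. All seedlings were 14 days old, and the tissue was the top 1.5 cm of the primary root below the hypocotyl, with lateral roots removed. Each sample pooled about 40 seedlings. Experiment 1 had 6 libraries of each genotype and experiment 2 had 5 of each, 22 in all.

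These proteins are made in the cytosol and imported into plastids. Leaves express their genes strongly in the light, while most root plastids are not green, although light-exposed Arabidopsis roots can form some chloroplasts, chiefly in the upper root. The LHCB and LHCA proteins bind chlorophyll and pass excitation energy to the reaction centres. PSA and PSB proteins build the photosystems, plastocyanin carries electrons between the cytochrome complex and photosystem I, and Rubisco fixes carbon dioxide.

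Total counts per library ran between 3705515 and 17727642 in experiment 1 and between 23190477 and 32091009 in experiment 2. MYB67 itself was not lower in the libraries labelled myb67: its level in CPM, the count scaled to the library total, reached 14.6 in myb67 and 7.18 in WT in experiment 1, and lay between 14.6 and 23.8 CPM in myb67 and between 6.68 and 13.6 CPM in WT in experiment 2. Every myb67 library lay above every WT library of its experiment for this gene. The 10 root markers summed to 11200 to 12500 CPM in myb67 and 11310 to 13620 CPM in WT in experiment 1, most of it from PYK10, a root beta-glucosidase. In experiment 2 they summed to 11280 to 13720 CPM in myb67 and 12100 to 14060 CPM in WT. The median level of the 10 markers differed between experiments. On log2(CPM + 0.5) it lay between 3.96 and 5.37 in myb67 and between 4.02 and 5.15 in WT in experiment 2, against 6.42 to 6.85 in myb67 and 6.29 to 6.62 in WT in experiment 1. WT replicates 3 and 6 of experiment 1 stood apart from the other 10 libraries of that experiment in the genes described here, so each genotype result is given with and without both. WT replicate 1 of experiment 1 stood apart over all genes: the chi-square of its counts against each of the other 5 WT libraries, divided by the number of genes, was 117.5 to 249.9, against 3.501 to 12.21 among those 5. It also had the fewest counts and a TMM factor of 0.709. Results that rest on WT of experiment 1 are therefore also given without it.

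The results turn on genes of the same family with very different root levels. The 250 bases directly upstream of the annotated gene start are shown for a high and a low member of the RBCS and LHCB1 families. RBCS1A was the highest RBCS gene in every group of libraries and LHCB1.3 the highest LHCB1 gene in experiment 2. RBCS2B and LHCB1.4 had the lowest mean levels of their families in experiment 1, in myb67 and in WT without replicates 3 and 6. RBCS1B was also near 0 there, and myb67 replicate 6 had 0 CPM of RBCS1B and 0.165 CPM of RBCS2B. The 4 genes shown were chosen after their values were seen. Sequences are from the RefSeq assembly TAIR10.1, written 5′ to 3′ on the strand of the gene. Capitals mark matches to CACGTG (G-box), GATAAG (core of the I-box), CCAATC or TATAAA on either strand, motifs known from promoters of light-responsive plant genes or, for the last, from the core promoter.
RBCS1A: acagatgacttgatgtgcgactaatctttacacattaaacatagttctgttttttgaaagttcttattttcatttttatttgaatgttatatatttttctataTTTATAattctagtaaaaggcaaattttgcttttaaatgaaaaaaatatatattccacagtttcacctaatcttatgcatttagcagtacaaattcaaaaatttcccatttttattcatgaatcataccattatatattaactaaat
RBCS2B: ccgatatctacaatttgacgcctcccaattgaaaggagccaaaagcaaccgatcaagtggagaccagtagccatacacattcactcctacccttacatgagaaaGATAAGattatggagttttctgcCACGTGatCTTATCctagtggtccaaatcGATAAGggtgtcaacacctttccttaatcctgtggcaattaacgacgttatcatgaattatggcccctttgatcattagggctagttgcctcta
LHCB1.3: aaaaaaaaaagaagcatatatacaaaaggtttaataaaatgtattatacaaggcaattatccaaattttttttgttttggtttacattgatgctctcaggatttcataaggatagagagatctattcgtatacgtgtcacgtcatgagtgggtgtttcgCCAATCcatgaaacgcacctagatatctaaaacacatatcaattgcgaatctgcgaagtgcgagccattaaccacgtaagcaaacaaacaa
LHCB1.4: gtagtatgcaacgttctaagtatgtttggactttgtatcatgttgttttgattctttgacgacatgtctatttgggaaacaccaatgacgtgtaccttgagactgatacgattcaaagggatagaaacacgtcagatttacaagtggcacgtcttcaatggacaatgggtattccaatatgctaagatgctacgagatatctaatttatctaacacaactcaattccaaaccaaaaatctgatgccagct
The 4 genes are AT1G67090 (RBCS1A), AT5G38420 (RBCS2B), AT1G29930 (LHCB1.3) and AT2G34430 (LHCB1.4) in the files. The windows lie at chr1:25049668-25049917 (minus strand) for RBCS1A, chr5:15382072-15382321 (minus strand) for RBCS2B, chr1:10477635-10477884 (plus strand) for LHCB1.3 and chr2:14524357-14524606 (plus strand) for LHCB1.4. RBCS2B held 1 G-box and 3 I-box cores in this window. RBCS1A held 1 match to TATAAA and none to the other 3 motifs, LHCB1.3 held 1 CCAATC, and LHCB1.4 held no match to any of the 4. Over all 50 genes, 9 windows held a G-box (18% of them, against 6.49% of 27443 gene windows of the same length), 13 an I-box core (26% against 12.3%), 14 CCAATC (28% against 10.2%) and 23 TATAAA (46% against 47.3%). No overlap occurred between matches in the 4 windows shown. A match describes letters, not a bound site, and the annotated start is the farthest of the listed transcripts. A window can thus miss the bases before a start that lies further downstream. The lack of a match, as in RBCS1A, does not show that a promoter lacks the motif.

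In the 10 libraries of experiment 1 other than WT replicates 3 and 6, the photosynthesis genes were present at low and uneven levels. Between genes, levels are compared as CPM per kilobase of annotated exon. LHCB1.5 and LHCB1.3, 2 genes for the main antenna protein of photosystem II, were the highest, with means of 138 and 95.4 CPM per kb in myb67 and 174 and 123 CPM per kb in the other 4 WT libraries. PSBR, a small subunit of photosystem II, followed with 64.5 CPM per kb in myb67 and 70.3 CPM per kb in those WT libraries. Next came LHCA4, an antenna protein of photosystem I, with 49.5 CPM per kb in myb67 and 60.6 CPM per kb in those WT libraries. At the low end were RBCS2B with 0.0676 and 0.0859 CPM per kb, LHCA6 with 0.101 and 0.149, RBCS1B with 0.139 and 0.170, and LHCB1.4 with 0.217 and 0.315, in myb67 and in those WT libraries. LHCA6 and LHCA5 encode proteins that join photosystem I to the chloroplast NDH complex. RBCS1A, PSBO1, which encodes the main protein of the oxygen-evolving complex, and LHCA4 were neighbours in this order, and their spreads overlapped in CPM per kb within myb67.

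**Figure D1:**
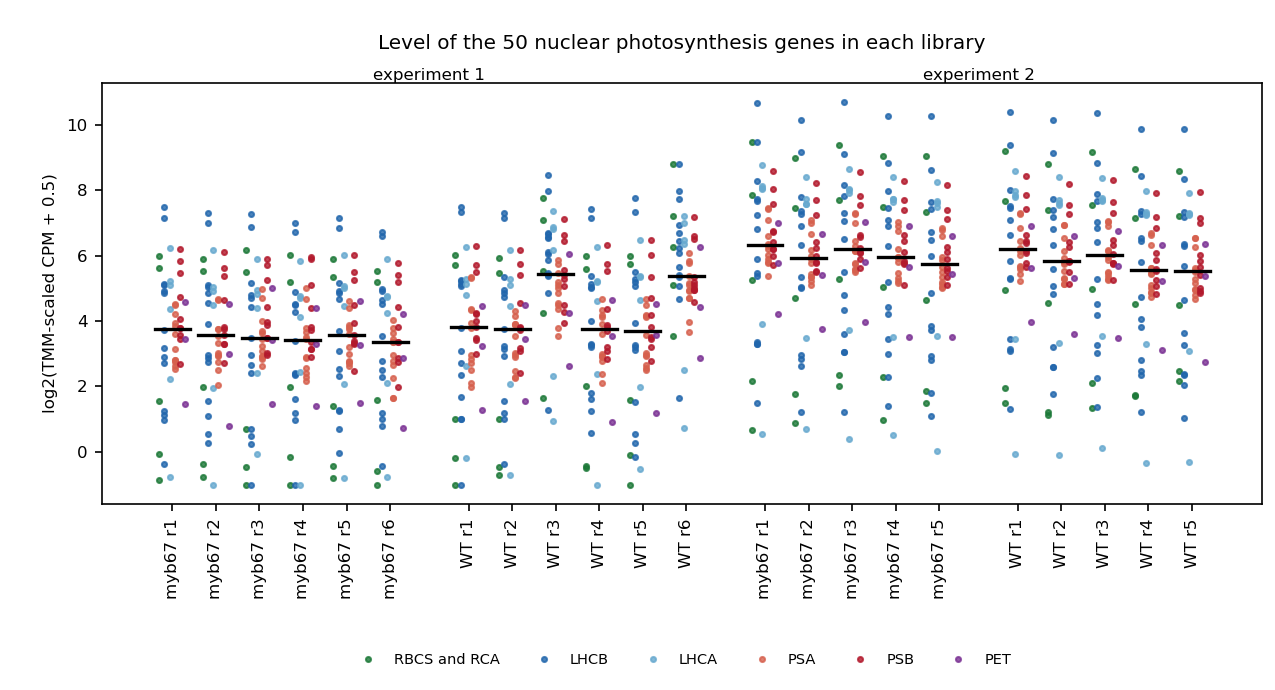
Level of each of the 50 genes in each of the 22 libraries, as log2(TMM-scaled CPM + 0.5), coloured by gene group, with a black bar at the median of the 50 genes. WT replicates 3 and 6 of experiment 1 had medians of 5.44 and 5.36, the other 10 libraries of experiment 1 lay between 3.35 and 3.81, and experiment 2 lay between 5.53 and 6.33.

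WT replicates 3 and 6 of experiment 1 had higher levels of most of the genes in the set. The 50 genes summed to 3240 CPM in WT replicate 3 and 3801 CPM in WT replicate 6, against 887.5 to 1217 CPM in the 6 myb67 libraries and 1155 to 1362 CPM in the other 4 WT libraries. Both libraries lay above all 10 others for 46 of the 50 genes. Of all 21683 genes tested, 2.29% did so. The exceptions were LHCB4.3, a minor antenna gene, LHCA5, and PSAD1 and PSAG, which encode photosystem I subunits. PSAD1 and PSAG were exceptions through WT replicate 1 alone, where a TMM factor of 0.709 raised the CPM. The 2 genes had 33.5 and 19.96 CPM in WT replicate 3, against 39.2 and 20.2 CPM in WT replicate 1. The other 9 libraries had at most 31.9 and 10.4 CPM. Without WT replicate 1, both libraries lay above the rest for 48 of the 50, against 2.68% of all genes. On log2(CPM + 0.5), the 50 genes were a median of 1.45 above the median of the other 4 WT libraries in WT replicate 3 and 1.45 in WT replicate 6, while the medians over all genes tested were -0.00067 and 0.0034. A difference above 1 was seen for 39 of the 50 in replicate 3 and 41 in replicate 6, against 0.761% and 1.13% of all genes tested. Measured from WT replicates 2, 4 and 5 only, the medians were 1.48 in replicate 3 and 1.49 in replicate 6, with 39 and 41 above 1. These 2 libraries were singled out after their values were seen, so no test is given for them.

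The RBCS genes and the LHCB1 genes differed most within their families. RBCS2B had 325.5 counts in WT replicate 3 and 264.5 counts in WT replicate 6, and between 0 and 3 counts in each of the other 10 libraries of experiment 1. LHCB1.4 had 1029.5 and 390.5 counts in WT replicates 3 and 6, and between 0 and 14 counts in the others. LHCB1.1 had 1688 and 1677 counts in WT replicates 3 and 6, and between 4 and 27 counts in the others. These 3 genes were close to absent in 10 libraries and within the range of the other photosynthesis genes in the other 2.

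The other RBCS genes and RCA were also higher in both libraries. RBCS1A had 217 CPM in WT replicate 3 and 443 CPM in WT replicate 6, and between 45.2 and 70.8 CPM in the other 10, so that replicates 3 and 6 were 3.45 and 7.03 times the median of the other 4 WT libraries. RBCS3B was 22.3 and 37.7 times that median. RBCS1B had 2.61 and 11.2 CPM in WT replicates 3 and 6, and between 0 and 0.452 CPM in the other 10. RCA, which keeps Rubisco active, was 2.76 and 2.99 times that median. Every RBCS gene was higher in replicate 6 than in replicate 3.

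Among the LHCB genes, LHCB1.2 was 10.8 and 14.4 times the median of the other 4 WT libraries in replicates 3 and 6, and LHCB2.3 was 11.8 and 10.4 times. LHCB1.3 was 2.34 and 2.91 times, and LHCB1.5 1.44 and 1.42 times. LHCB4.3 did not stand apart, with 1.91 and 2.60 CPM in WT replicates 3 and 6 and between 0.949 and 2.96 CPM in the other 10 libraries. The antenna of photosystem I had a similar split. LHCA1 to LHCA4 were between 1.93 and 3.38 times the WT median in the 2 libraries, whereas LHCA5 was 1.07 and 1.24 times, with 4.49 and 5.21 CPM in WT replicates 3 and 6 and between 3.36 and 5.71 CPM in the other 10.

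The medians of the log2 differences from the other 4 WT libraries were 1.42 and 1.54 for the 12 PSA genes in WT replicates 3 and 6, 1.1 and 1.26 for the 10 PSB genes and 1.4 and 1.65 for the 3 PET genes. They were 1.94 and 3.85 for RBCS and RCA, 1.6 and 1.47 for LHCB genes and 1.54 and 1.28 for LHCA genes. RBCS and RCA had the highest median in both libraries and PSB genes the lowest. PSAD1, with the highest mean level per length over all libraries among PSA genes, had 33.5 and 57.1 CPM in WT replicates 3 and 6 and between 9.67 and 39.2 CPM in the other 10. PSBR had 99.4 and 89.7 CPM in WT replicates 3 and 6 and between 41.9 and 64.1 CPM in the others. PETE2, the more abundant of the plastocyanin genes, had 65.1 and 76.4 CPM in WT replicates 3 and 6 and between 17.9 and 31.4 CPM in the others.

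**Figure D2:**
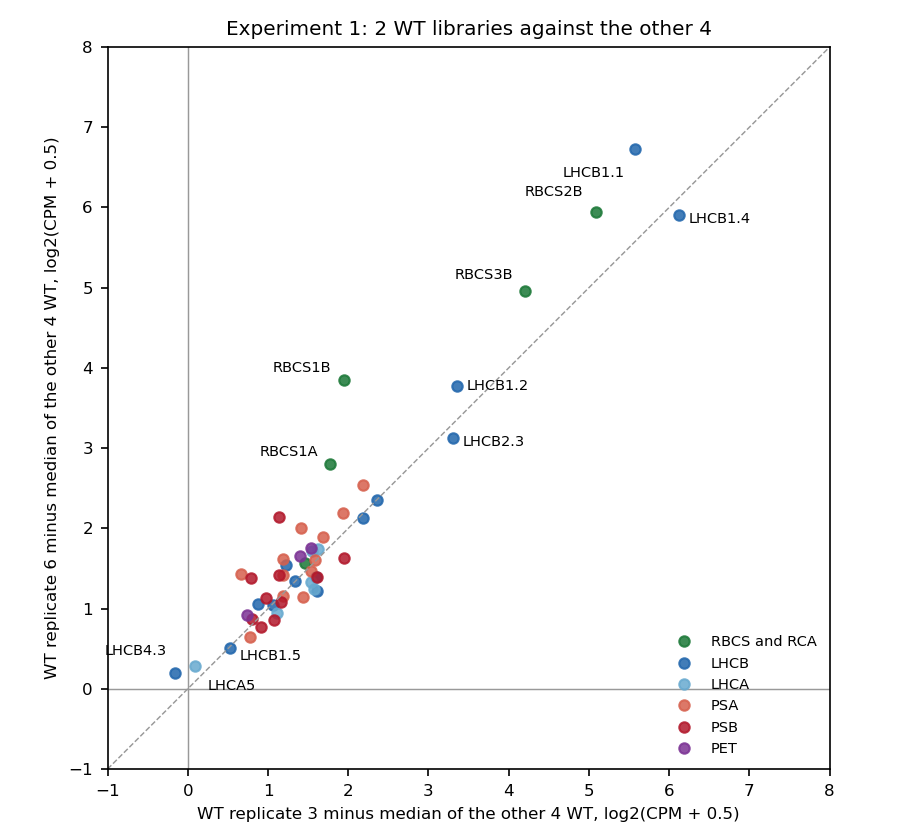
Each point is 1 of the 50 genes: WT replicate 3 (x) and WT replicate 6 (y) of experiment 1 minus the median of the other 4 WT libraries, in log2(CPM + 0.5). The 2 libraries differed by a median of 0.214 per gene (distance from the dashed line of equality) and by more than 1 for RBCS1B, LHCB1.1, RBCS1A and PSBY, all higher in replicate 6, with LHCB1.1, LHCB1.4 and RBCS2B above 5 on both axes and LHCA5 and LHCB4.3 near 0.

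The make-up of the families differed between libraries. RBCS1A gave 76.7% of RBCS counts in WT replicate 3 (95% exact binomial interval 75.5% to 77.9%) and 78.6% in WT replicate 6 (77.3% to 79.8%), against 93.8% to 98.1% in the other 10 libraries. RBCS2B gave 6.46% and 5.94% in WT replicates 3 and 6, against 0% to 0.345% in the others. RBCS3B gave 15.9% and 13.5%, against 1.57% to 5.6%. Among LHCB1 counts, LHCB1.1 gave 11.1% and 19.8% in WT replicates 3 and 6, against 0.184% to 0.733% in the others. LHCB1.5 gave 29.6% and 23.1%, against 50.7% to 56.1%. LHCB1.3 gave 41.7% and 41.1%, against 41.5% to 46.3%. Intervals cover counting error only, and reads without molecular identifiers are not independent molecules. Coding sequences of the 4 RBCS genes are 87.7% to 97.25% identical and those of the 5 LHCB1 genes 86.83% to 96.39%, so the split of reads between members of a family is uncertain.

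**Figure D3:**
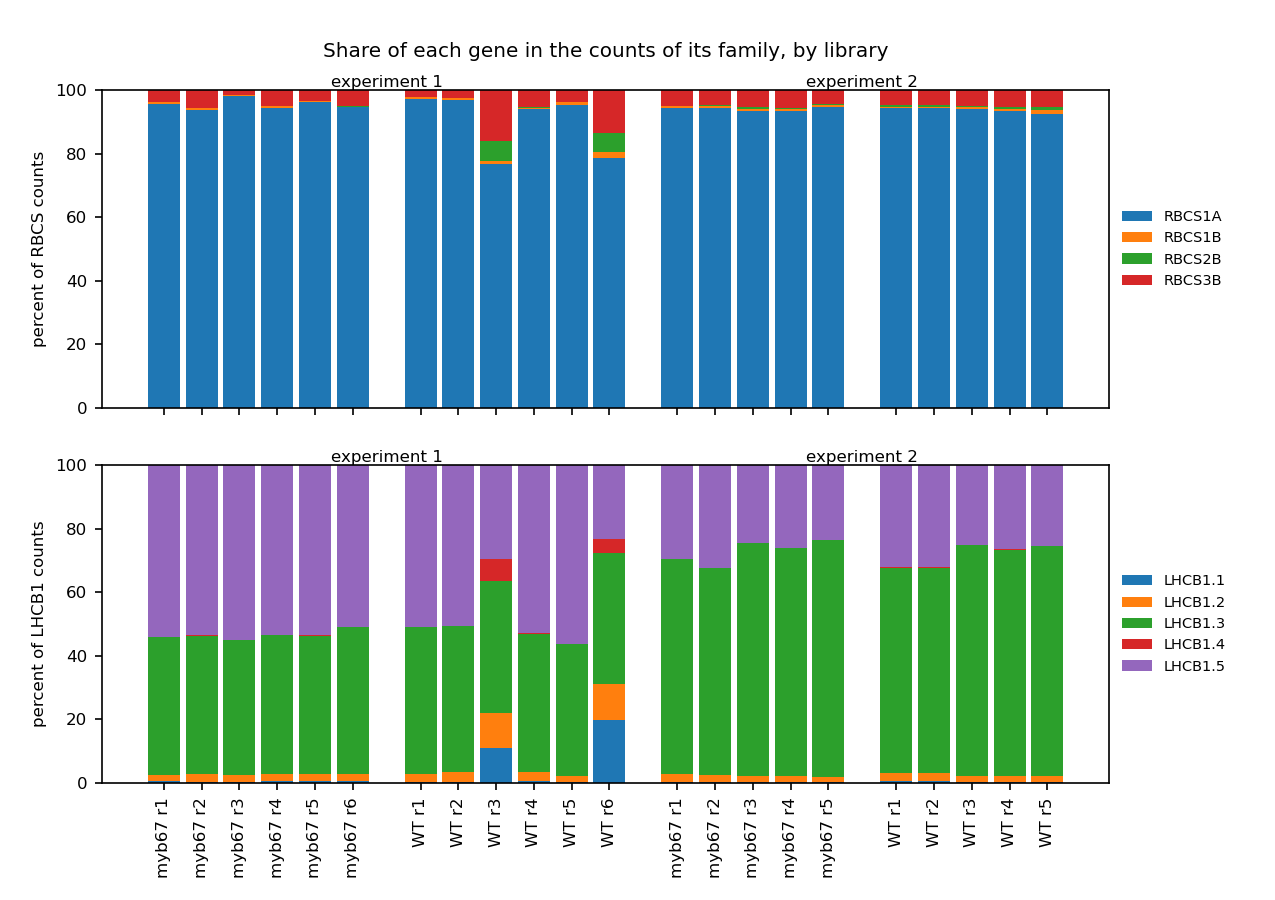
Stacked bars give the percent of RBCS counts (top) and LHCB1 counts (bottom) that fell to each gene in each library. WT replicates 3 and 6 of experiment 1 show RBCS2B, LHCB1.1 and LHCB1.4, and LHCB1.3 has 64.5% to 74.5% of LHCB1 counts in experiment 2.

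Other genes of photosynthesis and markers of shoot tissue were examined in the same 2 libraries. Both libraries lay above the other 10 of experiment 1 for 2.29% of all genes tested, the share beside which these counts stand. For synthesis of chlorophyll, 9 of 14 genes lay above the other 10 libraries in both, including GUN4, an activator of magnesium chelatase, with 5.25 and 8.64 CPM in WT replicates 3 and 6 against 1.94 to 4.74 CPM. For the Calvin cycle 9 of 14 did, including GAPA2, a subunit of the plastid glyceraldehyde phosphate dehydrogenase, with 19.8 and 25.0 CPM against 4.09 to 7.43 CPM. For photorespiration 6 of 12 did, among them GOX1, a glycolate oxidase, with 12.8 and 10.4 CPM against 1.52 to 3.57 CPM. For leaf-type electron transport and ATP synthase it was 6 of 9. Summed levels did not stand apart in both libraries for every list. Calvin cycle genes summed to 975.5 and 1233 CPM in WT replicates 3 and 6, against 851.5 to 1028 CPM in the other 4 WT libraries. Photorespiration genes summed to 1110 and 1081 CPM, against 997.1 to 1132 CPM. None of the 4 root-type plastid electron transfer genes, none of 12 light and clock genes and none of 10 root markers did. Of 14 regulators 3 did: GLK1, a transcription factor that activates antenna genes, with 3.12 and 5.27 CPM against 0 to 1.36 CPM, PIF5, a phytochrome-interacting factor, and SIG1, a plastid sigma factor.

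Of 15 shoot markers 6 lay above the other 10 libraries in both. Only 5 of the 15 were among the genes tested, so the share of 2.29% over tested genes does not cover the others. The leaf polarity gene FIL had 8 and 7 counts in WT replicates 3 and 6 and 0 in each of the other 10. YAB5, of the same family, had 6 and 3 counts and 0 in the others, and YAB3 6 and 8 counts and at most 1 in the others. The guard cell gene FAMA had 6 and 6 counts and 0 in the others. EPF2 and TMM, of the stomatal lineage, were the other genes of the 6. KAT1, MYB60, SPCH, GL1 and STM were not among the 6. CLV3, of the shoot meristem, was at 0 in all 12 libraries of experiment 1. The whole list summed to 50.6 and 88.8 CPM in WT replicates 3 and 6, against 35.8 to 67.3 CPM in myb67 and 38.5 to 78.4 CPM in the other 4 WT libraries, a range set mainly by KNAT1, PDF1 and CER1, which were present in every library. The part of shoot tissue in the levels of the photosynthesis genes was not tested. In bulk samples, more cells of a kind and more RNA per cell cannot be told apart.

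**Figure D4:**
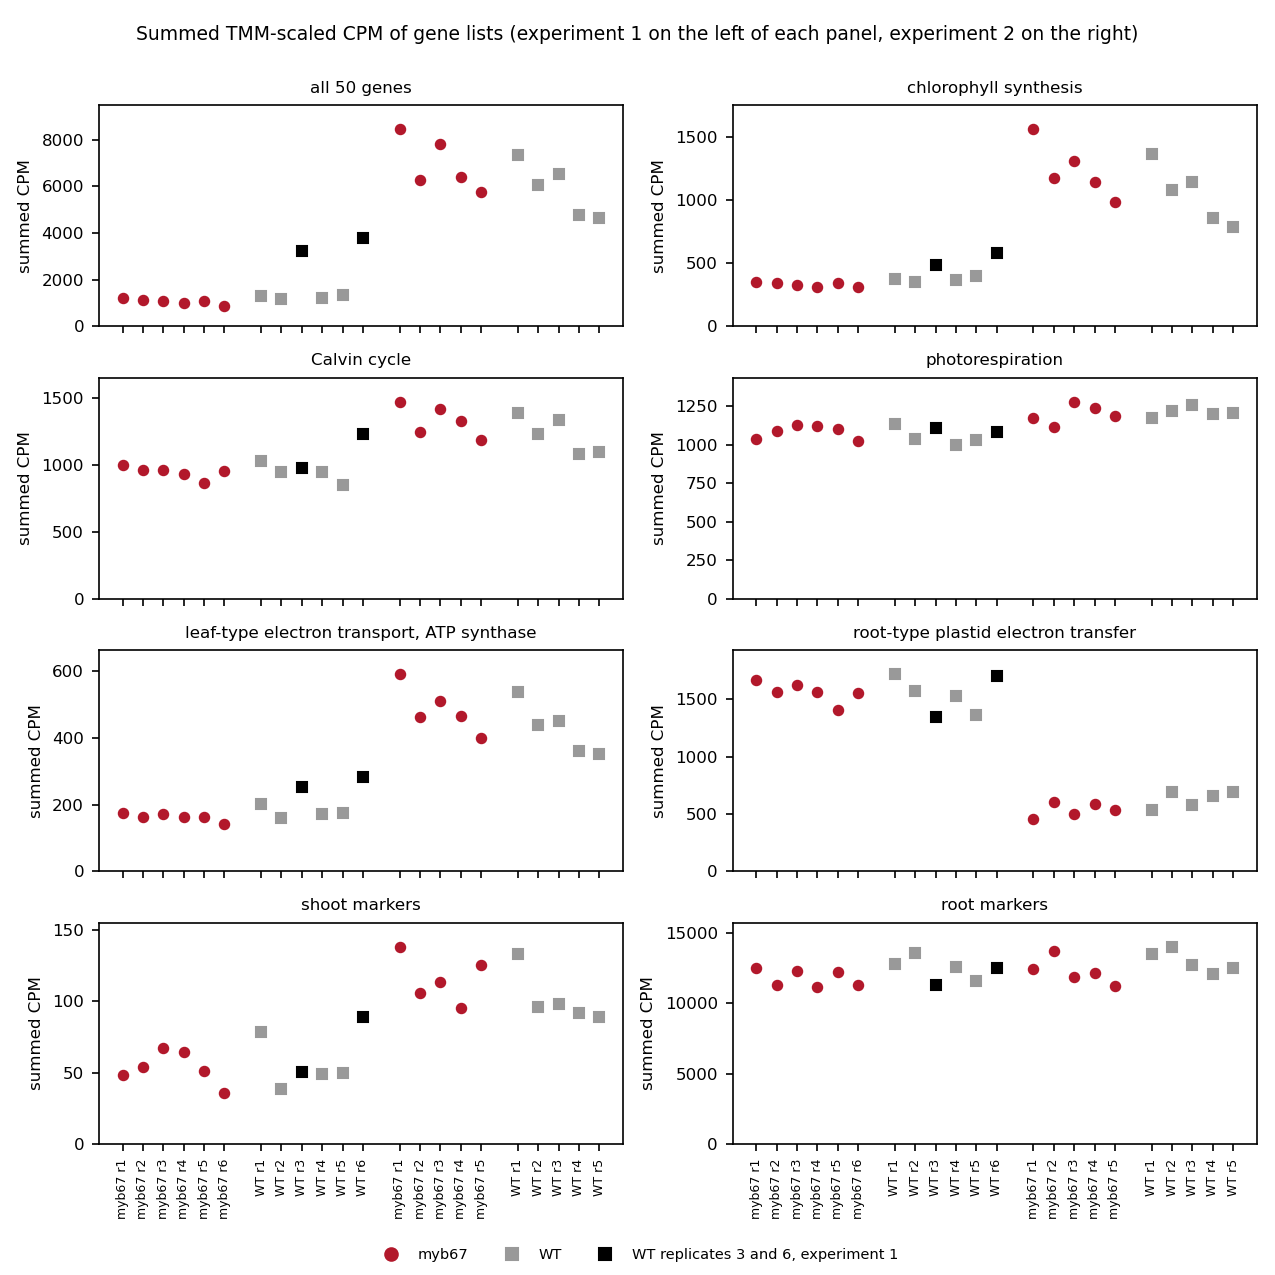
Summed TMM-scaled CPM of the 50 genes and 7 other gene lists in each library, with myb67 as circles, WT as squares and WT replicates 3 and 6 of experiment 1 in black. The 2 black points both stand above the rest of experiment 1 for the 50 genes, chlorophyll synthesis and leaf-type electron transport. They do not both do so for the Calvin cycle, photorespiration, root-type plastid electron transfer, shoot markers or root markers.

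In experiment 1 the fold changes of the photosynthesis genes lay below 0 in myb67 relative to WT, by an amount that rested on the 2 WT libraries. Their sum averaged 1064 ± 113 CPM in myb67 and 2016 ± 1181 CPM in WT (SD, n = 6 each), and 1264 ± 88.3 CPM in the 4 WT libraries without replicates 3 and 6 (SD, n = 4). The log2 fold change of myb67 over WT was below 0 for all 50, with a median of -0.93, while the median over all genes tested was near 0. With edgeR 5 genes passed an adjusted p of 0.05, all lower, where 0.309% of all genes tested were called lower. They were RBCS2B, LHCB1.4 and 3 others of the main photosystem II antenna, LHCB1.1 (AT1G29920), LHCB1.2 (AT1G29910) and LHCB2.3 (AT3G27690). Of the 50, 46 had an unadjusted p under 0.05. DESeq2 called 19 lower, against 0.678% of all genes, and limma-voom none, against 0.457% in either direction.

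RBCS2B had a lowest, median and highest level of 0, 0.0628 and 0.165 CPM in myb67, against 0, 0.161 and 33.6 CPM in WT. Its log2 fold change was -6.84 ± 1.6 (SE, edgeR adjusted p = 0.0490). LHCB1.4 had 0, 0.260 and 0.707 CPM in myb67, against 0, 0.686 and 57.8 CPM in WT, with a log2 fold change of -5.73 ± 1.25 (edgeR adjusted p = 0.0275). For both genes the other 4 WT libraries overlapped with myb67. LHCB1.1 had 0.908, 1.46 and 1.93 CPM in myb67, against 0.712, 1.70 and 213 CPM in WT, with a log2 fold change of -5.20 ± 1.17 (edgeR adjusted p = 0.0361). Fitted changes of genes this low depend on the prior count of the fit. LHCB1.2 had 4.42, 5.54 and 7.29 CPM in myb67, against 7.996, 9.02 and 123 CPM in WT, with a log2 fold change of -2.91 ± 0.65 (edgeR adjusted p = 0.0327). This gene did not overlap between genotypes, even among the other 4 WT libraries, which had 7.996 to 9.09 CPM. LHCB2.3 had 0.681, 1.45 and 2.43 CPM in myb67, against 1.52, 2.49 and 28.4 CPM in WT, with a log2 fold change of -2.83 ± 0.66 (edgeR adjusted p = 0.0486).

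By role, 1 of 5 RBCS and RCA genes was lower, with a group median of -3.10, and 4 of 14 LHCB genes, with a median of -1.03. None of the 6 LHCA, 12 PSA, 10 PSB or 3 PET genes passed with edgeR, with medians of -1.0, -0.81, -0.60 and -0.78. The authors' deposited table, which holds 1 comparison of myb67 with WT, gave an adjusted p under 0.05 for 3 of the 50, RBCS2B, LHCB1.1 and LHCB1.4, with log2 fold changes of -4.07, -2.98 and -3.40. It called 1.58% of the 26394 genes with an adjusted p there. Its labels name neither an experiment nor the libraries used, so it cannot be read as a result of experiment 1 alone. Its mean scaled count of LHCB1.3 was 10190. Counts of this gene reached at most 6329.5 in a library of experiment 1, and lay between 24271 and 44335 in experiment 2. The comparison over both experiments is given below.

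Without WT replicates 3 and 6 no member passed with edgeR in experiment 1, where 0.365% of all genes were called, and 9 had an unadjusted p under 0.05. The median log2 fold change was then -0.17 and 8 of the 50 were above 0. LHCB1.1 moved to 0.04 ± 0.48, LHCB1.4 to -0.52 ± 0.54, RBCS2B to -0.53 ± 1.19, LHCB1.2 to -0.61 ± 0.28 and LHCB2.3 to -0.63 ± 0.32 (SE). LHCB genes had the lowest median of the groups, -0.35, and PET genes the highest, -0.05. Without WT replicate 1 alone, 10 members passed as lower and the median was -1.0. Without WT replicates 1, 3 and 6, an alternative chosen after the data were seen, no member passed with edgeR (0.348% of all genes did), the median was -0.20, and 9 had an unadjusted p under 0.05. Leaving out WT replicate 3 alone, WT replicate 6 alone, or any 1 of the 6 myb67 libraries also left 0 calls, and leaving out any 1 of the other 4 WT libraries gave 10 to 16. Leaving out any 1 library of experiment 2, which shares the spread of the fit, gave 3, except for myb67 replicate 1 with 5. The shares over all genes in these fits without 1 library are not given here. Across all 6 libraries of each genotype, LHCB1.2, LHCB3, LHCB5, PSAL and PSAO were lower in every myb67 library than in every WT library. That is 5 of the 50, where 0.544% of all genes tested did so with 6 WT libraries and 1.04% with 4. Against WT replicates 2, 4 and 5 only, the count was 7, with LHCB2.2 and PETC added, against 2.16% of all genes. PSAL, a photosystem I subunit, had 12.2 to 15.7 CPM in myb67, against 17.2 to 19.6 CPM in the other 4 WT libraries and 53.4 and 54.2 CPM in WT replicates 3 and 6. LHCB5, a minor antenna protein of photosystem II, had 18.7 to 35.2 CPM in myb67, against 36.9 to 45.2 CPM in the other 4 WT libraries and 103 and 104 CPM in WT replicates 3 and 6.

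**Figure D5:**
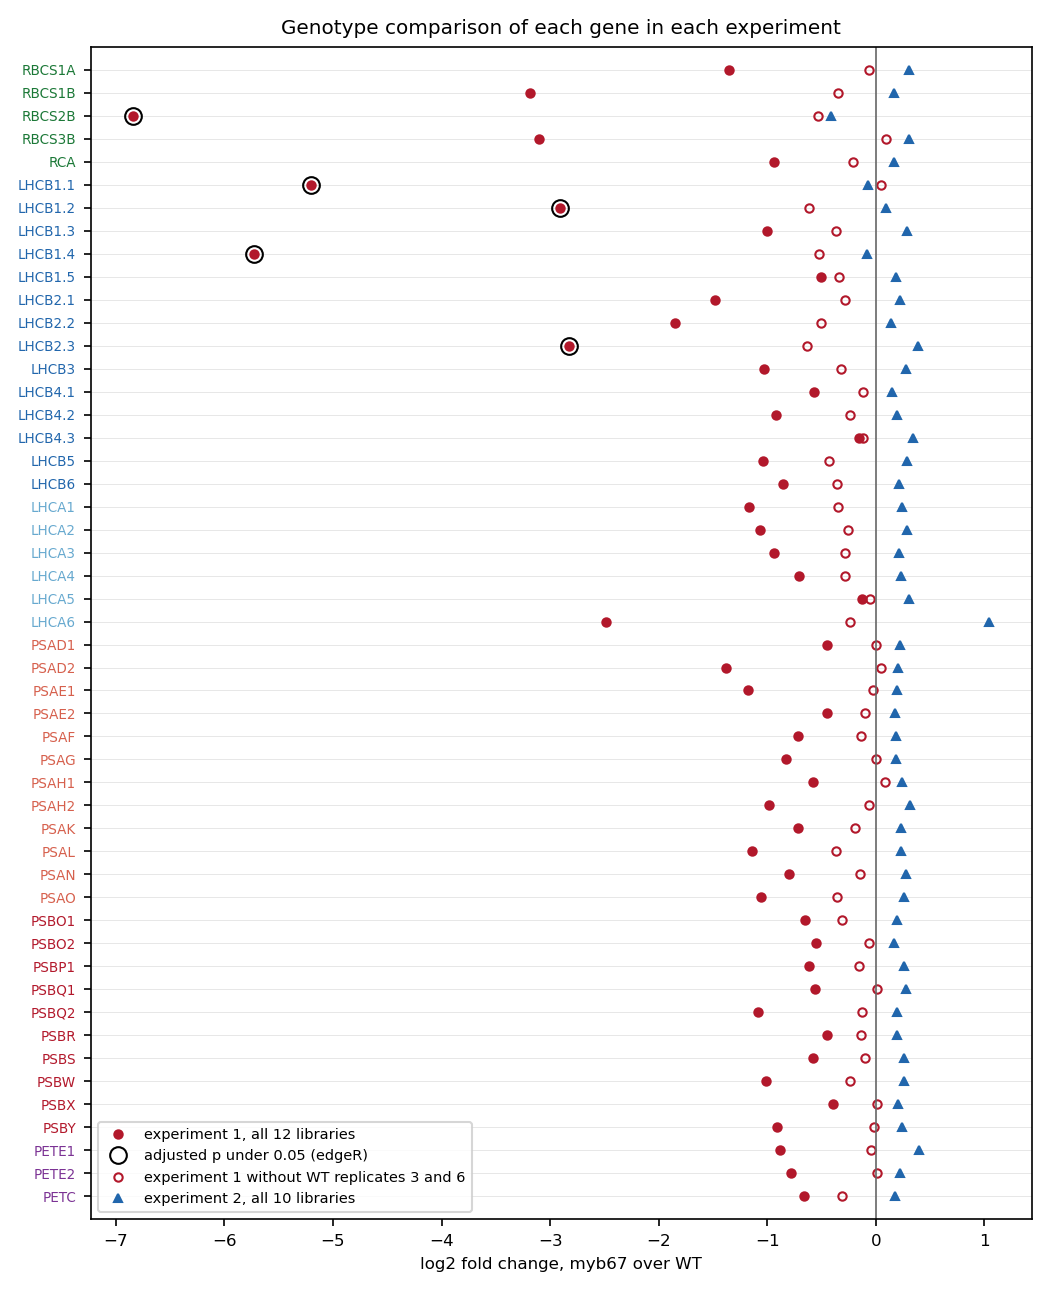
Log2 fold change of myb67 over WT for each of the 50 genes (gene names coloured by group), in experiment 1 with all 12 libraries (filled circles) and without WT replicates 3 and 6 (open circles), and in experiment 2 (triangles). Rings mark the 5 genes with an edgeR adjusted p under 0.05 in experiment 1, where filled circles lie between -6.84 and -0.13, while triangles lie between -0.41 and 1.05.

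In experiment 2 the same genes leaned the other way, by less. Their sum averaged 6943 ± 1131 CPM in myb67 and 5874 ± 1162 CPM in WT (SD, n = 5 each). The log2 fold change was above 0 for 47 of the 50, with a median of 0.23 against 0.004 over all genes tested. RBCS2B, LHCB1.1 and LHCB1.4 were the 3 below 0. By role the medians were close to each other, between 0.17 for RBCS and RCA and 0.26 for LHCA genes. No member passed with edgeR, where 1.33% of all genes did. Of the 50, 2 had an unadjusted p under 0.05. DESeq2 and limma-voom called none, against 1.85% and 1.73% of all genes. Leaving out WT replicates 3 and 6 of experiment 1, which enter this comparison through the estimate of spread, gave no call with edgeR either, against 1.21% of all genes, and 8 unadjusted p under 0.05. The genotypes overlapped for all 50, while 0.922% of all genes were higher and 0.913% lower in every myb67 library than in every WT library.

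Libraries with the same replicate number moved together in this experiment. The 50 genes summed to 8448, 6271, 7811, 6415 and 5772 CPM in myb67 replicates 1 to 5, against 7343, 6073, 6548, 4767 and 4641 CPM in WT replicates 1 to 5. Each myb67 sum lay above that of the WT library with its number. On log2(CPM + 0.5) the median difference of the 50 genes, myb67 minus WT, was 0.18, 0.04, 0.24, 0.43 and 0.26 in pairs 1 to 5, while the medians over all genes lay between -0.00588 and 0.00963. In all 5 pairs 34 of the 50 were higher in myb67 (68%), against 8.66% of all genes. RBCS2B and LHCB1.1 were higher in 1 pair and LHCB1.4 in 3.

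LHCA6 had the largest fold change of the set in experiment 2. Its level was 0.962, 1.14, 0.804, 0.938 and 0.528 CPM in myb67, against 0.459, 0.440, 0.593, 0.291 and 0.307 CPM in WT, which overlapped in 1 library of each genotype. The log2 fold change was 1.04 ± 0.47 (SE, edgeR adjusted p = 0.543), on 14 to 31 counts in myb67 and 8 to 17 in WT. PETE1, a plastocyanin gene, had 18.2, 13.1, 15.2, 10.9 and 11.01 CPM in myb67, against 15.1, 11.6, 10.6, 8.14 and 6.22 CPM in WT, with a log2 fold change of 0.40 ± 0.27 (edgeR adjusted p = 0.861). LHCB2.3 had 9.73, 5.61, 11.6, 10.3 and 7.09 CPM in myb67, against 8.06, 5.52, 9.17, 6.504 and 4.68 CPM in WT, with a log2 fold change of 0.38 ± 0.51 (edgeR adjusted p = 1.0). The most abundant member, LHCB1.3, had 1640, 1142, 1660, 1242 and 1240 CPM in myb67, against 1346, 1138, 1326, 934 and 932 CPM in WT, with a log2 fold change of 0.29 ± 0.25 (edgeR adjusted p = 0.955). The genotypes overlapped for each of these, while within each numbered pair the 4 genes were higher in myb67.

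With replicate number as a block in experiment 2, no member passed in experiment 2 (4.84% of all genes did, the smallest edgeR adjusted p was 0.061, and 3 members had an unadjusted p under 0.05). The fit shares 1 estimate of spread per gene across the 2 experiments. When the block was combined with leaving out WT replicates 3 and 6 of experiment 1, 11 members passed in experiment 2, all higher in myb67, where 1.89% of all genes were called higher. They were RBCS1A, LHCB1.3, LHCB3, LHCA1, LHCA2, LHCA5, PSAH2, PSAL, PSAO, PSBP1 and PETE1, with log2 fold changes between 0.25 and 0.43. PSAL had 0.25 ± 0.05 (SE, edgeR adjusted p = 0.00731) and RBCS1A 0.32 ± 0.07 (edgeR adjusted p = 0.0134). That combination was chosen after the data were seen.

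Over both experiments together the median log2 fold change was -0.28, and 47 of the 50 were below 0. No member passed with edgeR, where 1.5% of all genes did, 4 had an unadjusted p under 0.05, DESeq2 called 3 lower (0.904% of all genes) and limma-voom none (1.78% in either direction). Without WT replicates 3 and 6 the median was 0.07, on the other side of 0, with 38 above 0, no call by edgeR (1.35% of all genes) and 1 unadjusted p under 0.05. Without WT replicate 1 of experiment 1 the median was -0.30 with no call, and without WT replicates 1, 3 and 6 it was 0.07 with no call. With all libraries, LHCB1.4, LHCB1.1 and RBCS2B had the largest negative values, -2.22 ± 0.86, -2.20 ± 0.89 and -2.03 ± 0.82 (SE). LHCA6, LHCB4.3 and LHCA5 were the 3 above 0, with 0.19 ± 0.48, 0.17 ± 0.16 and 0.14 ± 0.10.

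The difference between the genotype effects, experiment 2 minus experiment 1, was above 0 for all 50 genes, with a median of 1.15 on the log2 scale. No member passed with edgeR, where 0.0692% of all genes did. The unadjusted p was under 0.05 for 48, and DESeq2 and limma-voom called none, against 0.198% and 0.0277% of all genes. The 5 genes of smallest p were LHCB5, LHCB2.3, PSBO1, LHCB1.3 and PSAL. LHCB5 had 1.33 ± 0.34 (SE, edgeR adjusted p = 0.285) and LHCB2.3 had 3.21 ± 0.85 (edgeR adjusted p = 0.294). Without WT replicates 3 and 6 the median was 0.42, 49 were above 0 and no member passed with edgeR, against 0.036% of all genes, with 16 at an unadjusted p under 0.05. Without WT replicate 1 the median was 1.22, and without WT replicates 1, 3 and 6 it was 0.44, with no call in either. With only WT replicates 3 and 6 left out, LHCB5 had 0.73 ± 0.22 and LHCB2.3 had 1.02 ± 0.38 (SE). With replicate number as a block in experiment 2, 10 members passed for the difference, all positive, where 0.738% of all genes were called positive. In that fit 15 members passed as lower in experiment 1, where 0.604% of all genes did. With the block and without the 2 WT libraries, 15 members passed for the difference, where 0.518% of all genes were called positive, and 2 passed as lower in experiment 1, LHCB1.2 and PSAL, where 0.387% did.

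The photosynthesis genes were higher in experiment 2 than in experiment 1, over both genotypes. With edgeR 46 of the 50 passed as higher, where 42.8% of all genes did and 80.7% passed in either direction, and the median log2 fold change of experiment 2 over experiment 1 was 2.04, against 0.05 over all genes tested. The 4 that did not pass were RBCS2B with 1.43, LHCB2.3 with 0.93, LHCB1.4 with -0.37 and LHCB1.1 with -0.45. Without WT replicates 3 and 6 all 50 passed as higher, with a median of 2.41, where 42.9% of all genes did. Without WT replicate 1 of experiment 1 the count was 46, with the share over all genes not given here. Without WT replicates 1, 3 and 6 it was 50, where 42.5% of all genes were called higher. The counts of 50 include RBCS1B, RBCS2B, LHCA6 and LHCB1.4, which lay near 0 in the 10 other libraries of experiment 1. Those genes could pass the filter on low counts only through experiment 2, so their calls as higher were largely set by the filter. RBCS1B and LHCA6 are also among the 46 called with all libraries, where the same limit holds. All 10 libraries of experiment 2 lay above the 10 other libraries of experiment 1 for 48 of the 50, as for 22.2% of all genes, and above all 12 for 32, as for 20.8%. The 48 include RBCS1B, RBCS2B and LHCB1.4, with the same limit, and the 32 include none of RBCS1B, RBCS2B, LHCA6 and LHCB1.4. The experiments also differed in depth and in how the values were made, since those of experiment 1 come in steps of 0.5 and those of experiment 2 are whole, so a difference between experiments cannot be told apart from these.

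The genes that stood furthest above the other libraries in WT replicates 3 and 6 were low in experiment 2. LHCB1.1 had 3.02 to 9.40 CPM in myb67 and 4.29 to 10.4 CPM in WT in experiment 2, against 94.7 and 213 CPM in WT replicates 3 and 6 of experiment 1. LHCB1.4 had 1.66 to 2.29 CPM in myb67 and 1.54 to 2.91 CPM in WT in experiment 2, against 57.8 and 49.6 CPM in those 2 libraries. RBCS2B had 1.07 to 3.55 CPM in myb67 and 1.69 to 4.03 CPM in WT in experiment 2, against 18.3 and 33.6 CPM. LHCB1.3, in contrast, had 1142 to 1660 CPM in myb67 and 932 to 1346 CPM in WT in experiment 2, against 355 and 442 CPM. RBCS1A had 509 to 713 CPM in myb67 and 384 to 583 CPM in WT in experiment 2, against 217 and 443 CPM.

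RBCS1A gave 92.6% to 94.7% of RBCS counts in experiment 2, against 93.8% to 98.1% in the 10 other libraries of experiment 1. LHCB1.3 gave 64.5% to 74.5% of LHCB1 counts in experiment 2 and LHCB1.5 23.5% to 32.3%, while in those 10 libraries LHCB1.3 gave 41.5% to 46.3% and LHCB1.5 50.7% to 56.1%. The order of the main antenna genes was thus LHCB1.3 above LHCB1.5 in experiment 2 and the reverse in those 10 libraries. LHCB1.1 gave 0.181% to 0.498% in experiment 2 and 0.184% to 0.733% in those 10 libraries, ranges that overlap.

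Genes around the set shifted between experiments in both directions. Of all genes tested, 42.8% were higher and 37.9% lower in experiment 2, the shares against which these counts stand. With edgeR 13 of 13 tested chlorophyll synthesis genes, 12 of 14 Calvin cycle genes and 8 of 9 leaf-type electron transport genes were higher in experiment 2, with medians of 1.39, 2.21 and 1.27. The other two Calvin cycle genes, TKL1 and RPI3, were lower. Of 11 tested photorespiration genes 7 were higher and 2, GLDT and CAT2, lower, and of 13 tested regulators 7 were higher and 3 lower. All 4 root-type plastid electron transfer genes were lower, with a median of -1.29. RFNR2, a root-type ferredoxin-NADP reductase, averaged 164 CPM in WT of experiment 2, against 481 to 608 CPM in the 10 other libraries of experiment 1. Of 12 light and clock genes 10 were lower and 2 higher. Of 9 tested root markers 6 were lower and 3 higher. CASP1, of the young endodermis, averaged 14.9 CPM in WT of experiment 2, against 117 to 152 CPM, and COBL9, of root hairs, averaged 5.25 CPM, against 48.6 to 86.5 CPM. Of 5 tested shoot markers 2 were lower and 2 higher, called among PDF1, CER1, MYB60 and KNAT1. KNAT1, a higher one, averaged 88.4 CPM in WT of experiment 2, against 10.5 to 32.6 CPM. CASP1, COBL9 and KNAT1 are examples, and the other called markers of both lists went in both directions. The median log2 fold change was -0.974 for the root markers and -0.375 for the shoot markers. The part of these shifts in the levels of the photosynthesis genes was not tested. The median log2 fold change of myb67 over WT was -0.40 in experiment 1 and 0.21 in experiment 2 for chlorophyll synthesis, and -0.85 and 0.21 for the Calvin cycle. Without WT replicates 3 and 6 the medians in experiment 1 were -0.17 for chlorophyll synthesis and -0.15 for the Calvin cycle. Within an experiment, no gene of these lists other than the suberin gene GPAT5 passed the genotype comparison with edgeR.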

How the data were processed

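Upper root mRNA was measured in 22 libraries. The authors deposited gene-level expected counts for experiment 1, whose values step by 0.5 (28.2% to 34.6% are not whole), and whole counts for experiment 2, neither normalized. Tools listed in the submitters' processing notes, without roles, are STAR 2.7.10a, HOMER, Trimmomatic 0.39, FastQC and DESeq2 1.40.1, with the build TAIR10. Strandedness and the handling of multi-mapping reads are not given in the sources used here, and 18 of the 50 genes overlap another annotated gene, 16 only on the opposite strand. The authors' deposited comparison gives log2 fold changes, their standard errors, an adjusted p-value and a mean signal of scaled counts. Its signs match myb67 over WT.

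Values were rounded to whole numbers. Genes were kept with filterByExpr on the 4 groups, scaled by TMM and compared in edgeR 4.0.16 (quasi-likelihood F tests) on all 22 libraries, with Benjamini-Hochberg adjustment over 21683 genes. Genes were called at an adjusted p under 0.05. The effect over both experiments had experiment as a term, and the other effects came from 4 group means. An SE is the absolute log2 fold change divided by the square root of F, an approximation. Levels are TMM-scaled CPM, on effective library sizes. The labels call the libraries biological replicates. No pair of replicates was a duplicate: their chi-square divided by the number of genes was 2.149 to 249.9.

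Same-numbered libraries deviated together from their group means in experiment 2 (correlations across genes of 0.285 to 0.671) and not in experiment 1 (-0.158 to 0.043), where above 0.1 was taken as paired. Myb67 replicate 5 matched WT replicate 4 best. Fits were run on simulated counts with known changes and a fixed spread. The simulation held no libraries set apart and no paired libraries, so it does not cover those features of the data. The members, gene lists and alternatives were chosen with earlier results of these data known. Named genes follow a rule on level, fold change, call and spread, unless said otherwise. Alternatives were RLE scaling, filters, DESeq2 1.42.0, limma-voom (limma 3.58.1), a robust prior, unrounded values, replicate blocks, no experiment term, single experiments and left-out libraries. Plastid-encoded genes were not analysed here. R 4.3.3, Python 3.11.15, Biopython 1.88 and matplotlib 3.10.9 were used. Gene positions, exon lengths and promoter windows come from the TAIR10.1 RefSeq annotation.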

Additional observations from a re-analysis of the deposited data

Results flagged for a closer look

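Summed levels of the 6 gene groups, the whole set and 9 other lists were looked at in each of the 4 groups of libraries, 64 in all. In 3 of them 1 library lay far from the rest, and chance flags about 1 in 20 groups. The 12 PSA genes summed to 99.84 CPM in myb67 replicate 6 of experiment 1, below the other 5 myb67 libraries, which lay between 133 and 150 CPM. The 9 genes of leaf-type electron transport and ATP synthase summed to 140.2 CPM in the same library, below the other 5, which lay between 162.5 and 174.5 CPM. The 15 shoot markers summed to 133.6 CPM in WT replicate 1 of experiment 2, above the other 4 WT libraries, which lay between 89.3 and 98.3 CPM. In that library the 50 photosynthesis genes also had the highest sum of the WT libraries of experiment 2, 7343 CPM. Their part in any result was not tested. WT replicates 3 and 6 of experiment 1 are 2 high libraries in 1 group, which this search for a single far library does not find.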

How the results depend on the processing

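In experiment 1 the 5 calls became 10 without a filter on low counts, 19 with DESeq2, 15 with the replicate block in experiment 2 and 8 with the replicate block in both experiments. Of all genes tested, 0.678% were called lower with DESeq2 and 0.604% with the block in experiment 2. With the block in both, 1.07% were called in either direction. The shares without a filter and in the fits without 1 library are not given here. The 5 calls became 0 with limma-voom (24 unadjusted), the robust prior (43), only the libraries of that experiment (42), without the 3 libraries of fewest counts (43), and without WT replicates 3 and 6. The alternatives differ in how the spread is estimated and which libraries they hold, and the cause was not tested. Leaving out 1 library at a time gave 0 to 16 calls there, and 0 in the other 3 genotype comparisons. The median log2 fold change in experiment 1 ranged between -1.06 and -0.65 without 1 library and was -0.17 without WT replicates 3 and 6. Without both, the median over both experiments turned to 0.072 and that of the difference was 0.42. LHCB1.1 in experiment 1 turned to 0.045. Also leaving out WT replicate 1, an alternative chosen after seeing the data, gave 0 calls in experiment 1, medians of -0.20 in experiment 1, 0.075 over both and 0.44 for the difference, and LHCB1.1 at 0.045. With WT replicate 1 alone left out, 10 members passed in experiment 1 and none in the other 3 genotype comparisons.

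The replicate block, for which only experiment 2 showed pairing, gave 10 calls for the difference with the block in experiment 2 and 11 with the block in both experiments, which also called 2 in experiment 2 (LHCA5 and LHCA6, 4.52% of all genes). For the difference, 2.64% of all genes were called in either direction with the block in experiment 2 and 2.38% with the block in both. The block in experiment 2 without WT replicates 3 and 6, chosen after seeing the data, gave 2 calls in experiment 1, 11 in experiment 2 and 15 for the difference. Its medians were -0.17 in experiment 1, 0.43 for the difference and 0.096 over both, with LHCB1.1 at 0.045 in experiment 1. DESeq2 called 3 over both experiments and turned LHCA6 to -0.42. In experiment 2, LHCB1.4 ranged between -0.17 and 0.076 and LHCB1.1 between -0.27 and 0.16 without 1 library each.

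Calls for experiment 2 over experiment 1 stayed between 45 and 50 under the alternatives run. Counts of 0 to 3 per library limit RBCS2B and LHCA6, 0 to 5.5 RBCS1B and 0 to 14 LHCB1.4, in the libraries of experiment 1 other than WT replicates 3 and 6.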
